A study of Mus musculus with 8 samples.

Results

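The 3 uncoupling protein genes of the mouse, Ucp1, Ucp2 and Ucp3, were followed across RNA purified from UCP1-positive cells of 3 fat depots. They were taken by gene symbol from the 22552 symbols listed for every library, and each had 1 transcript in the files. All mice were female, 6 weeks old and of a strain given as C57B/6 UCP1-TRAP. The animals were bred at 30 °C, weaned into room temperature at 3 weeks, and kept at 4 °C for 2 weeks from the age of 4 weeks, so every group was exposed to cold. The groups were inguinal white adipose tissue (inguinal WAT, 3 libraries), perigonadal white adipose tissue (perigonadal WAT, 2 libraries) and interscapular brown adipose tissue (BAT, 3 libraries). Ribosomes were pulled down with an antibody against GFP, the tag that lines for translating ribosome affinity purification (TRAP) carry on their ribosomes. The labels name Ucp1 as the gene that marks the cells and do not describe the construct, how many animals gave a library, or whether libraries came from separate animals. The p-values therefore measure only the spread between these libraries, which may be technical.

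Uncoupling proteins are carriers of the SLC25 family in the inner mitochondrial membrane. UCP1 lets protons return to the matrix without making ATP, so that the energy of respiration is released as heat. It is activated by fatty acids set free by adrenergic signalling and is the defining protein of brown and beige adipocytes. UCP2 is found in many tissues, among them spleen and macrophages, and UCP3 mostly in skeletal muscle and brown fat. Neither of these is regarded as a main source of heat in the cold, and their transport functions remain debated. Since cells were marked through Ucp1, its own level was measured in cells chosen for that gene.

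Ucp3 and Ucp2 are neighbours and Ucp1 lies elsewhere in the genome. In build mm9, Ucp1 was at chr8:85814247-85822355 with 6 exons and a transcript of 1644 bases. Ucp3 was at chr7:107621500-107634941 with 7 exons and 2448 bases, and Ucp2 at chr7:107641854-107650682 with 8 exons and 4133 bases. All lay on the plus strand, 6912 bases separated the end of Ucp3 from the start of Ucp2, and the files listed 0 other transcripts between or over them. The last exon made up 36.5 percent of the Ucp1 transcript, 58.8 percent of Ucp3 and 71.1 percent of Ucp2. The Ucp2 model of the files spanned 8829 bases, against 6293 in RefSeq's annotation of GRCm38.p6, while the spans of Ucp1 (8109) and Ucp3 (13442) were equal in both. The Ucp2 transcript of GENCODE M21 had 3988 bases, near the 4133 of the files. A transcript set too long lowers FPKM (fragments per kilobase of transcript, further divided by the number of mapped fragments), so the level of Ucp2 against the other genes depends on its model, whereas its comparison between depots does not.

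**Figure D1:**
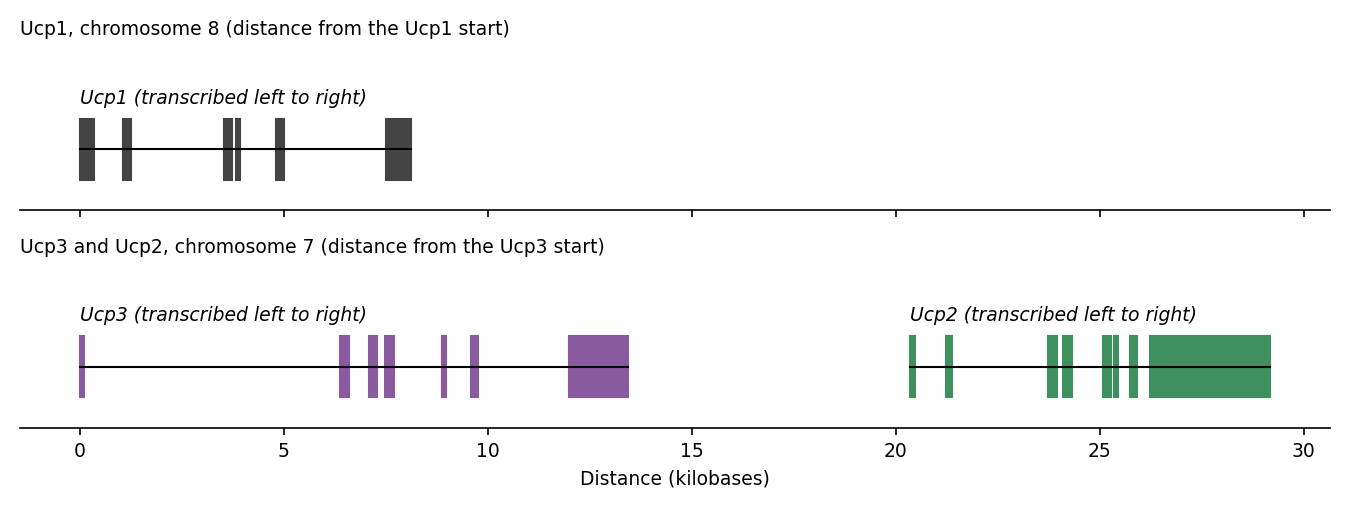
Exons (boxes) and introns (lines) of the gene models used by the files, drawn to scale as distance in kilobases from the start of Ucp1 (top) and of Ucp3 (bottom). Ucp3 and Ucp2 stand in the same orientation with a gap of 6912 bases, and the last exon of Ucp2, of 2938 bases, is the longest box.

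The coding sequences of the 3 genes are related but share no long identical stretch. Ucp2 and Ucp3 had 75.5 percent identity over 918 aligned bases, Ucp1 and Ucp3 63.4 percent over 920, and Ucp1 and Ucp2 62.3 percent over 916, from GENCODE M21 transcripts. Their lengths without the stop codon were 307 codons for Ucp1, 309 for Ucp2 and 308 for Ucp3. The longest runs of identical coding bases are shown to let the likeness be seen; UTRs were not compared, and how reads from such stretches were mapped was not tested.
Ucp1 with Ucp2, and Ucp1 with Ucp3: ATTGGCCTCTACGACTC
Ucp2 with Ucp3: AATGCCATTGTCAACTGTGCTGAG
The first run has 17 bases and the second 24, and the capitals mark that every base is shared.

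The regions before the transcription starts are shown to let the 3 genes be compared. The part of these sequences in the unequal levels of the genes was not tested. Each line holds the 250 bases upstream of the start from RefSeq (GRCm38.p6, plus strand), at chr8:83290098-83290347 for Ucp1, chr7:100493108-100493357 for Ucp2 and chr7:100472741-100472990 for Ucp3. Capitals mark matches, on either strand, to 6 motifs, and no matches overlapped. The TATA box was searched as TATAAA and, separately, as TATATA. The GC box was searched as GGGCGG. The half-site of the cAMP response element was searched as TGACG, and that of nuclear receptors as AGGTCA. The CCAAT box was searched by the letters of its name, and neither it nor TATAAA was found in any of the 3.
Ucp1: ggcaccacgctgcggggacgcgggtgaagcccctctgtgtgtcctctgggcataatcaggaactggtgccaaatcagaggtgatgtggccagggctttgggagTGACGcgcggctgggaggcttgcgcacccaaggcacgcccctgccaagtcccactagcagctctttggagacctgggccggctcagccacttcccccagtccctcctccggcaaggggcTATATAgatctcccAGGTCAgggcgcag
Ucp2: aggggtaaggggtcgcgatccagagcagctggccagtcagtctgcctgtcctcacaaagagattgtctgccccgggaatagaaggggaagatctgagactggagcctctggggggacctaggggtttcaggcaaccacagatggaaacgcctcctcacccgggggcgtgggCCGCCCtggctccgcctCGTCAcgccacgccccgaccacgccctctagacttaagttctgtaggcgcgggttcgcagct
Ucp3: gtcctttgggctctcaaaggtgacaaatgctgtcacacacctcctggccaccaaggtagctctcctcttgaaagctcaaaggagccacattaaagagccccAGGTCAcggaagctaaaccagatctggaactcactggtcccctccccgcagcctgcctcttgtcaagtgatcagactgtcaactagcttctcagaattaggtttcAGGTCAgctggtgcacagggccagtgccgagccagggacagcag
Ucp1 had TATATA beginning 28 bases before the start, a motif held by 5.25 percent of 32851 such regions, TGACG at 147 and AGGTCA at 14. Ucp2 had the GC box at 79 and TGACG at 62, both on the minus strand, held by 32.7 and 17.8 percent of regions. Ucp3 had AGGTCA at 149 and at 44, a motif that 14.0 percent of regions held at least once. The G and C content was 64.8 percent for Ucp1, 63.6 for Ucp2 and 54.8 for Ucp3, against a median of 52.4. A match describes letters and not a bound site.

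The libraries were unequal. The FPKM denominators were 1684534 to 2517687 fragments, of which 14.6 percent (inguinal replicate 3) to 46.5 percent (perigonadal replicate 1) lay on the listed transcripts, with 21.6 to 22.1 percent in BAT. Perigonadal values were higher for most genes, with a median difference from BAT of 0.52 on the log2(FPKM + 1) scale over 8958 tested genes. That median was 0.03 for inguinal WAT against BAT and -0.50 for inguinal against perigonadal WAT. Values after median-ratio scaling, which moved the 3 medians to 0.02, 0.01 and -0.01, are therefore given beside the deposited ones. For each member the number of fragments could be recovered from the FPKM and its upper confidence bound, which in the authors' files lies above it by 2 times the FPKM divided by the square root of that number.

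Ucp1 was among the 6 most abundant genes in every library. With all libraries in the model its level did not pass the test between any pair of depots. BAT replicates 1, 2 and 3 had 1409.8, 1575 and 1313 deposited FPKM. The perigonadal pair had 1593 in replicate 1 and 1282 in replicate 2, and the inguinal libraries had 1417, 1302 and 592 in that order of replicates. Inguinal replicate 3 lay far under all other libraries, and the values of the depots overlapped. Counting error was small for Ucp1. Between 1307 and 5762 fragments stood behind each, and the deposited confidence bounds lay within 2.63 to 5.53 percent of the value.

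On the deposited scale the difference in Ucp1 was -0.47 (SE 0.26, 95% interval -0.99 to 0.05) for inguinal WAT against BAT, where limma's adjusted p was 0.697. It was 0.00 (SE 0.29, -0.58 to 0.58) for perigonadal WAT against BAT, with adjusted p = 1 by limma, and -0.47 (SE 0.29, -1.06 to 0.11) for inguinal against perigonadal WAT, with adjusted p = 0.413. After scaling, the inguinal libraries lay between 1087 and 1166, the perigonadal ones between 869 and 1113 and the BAT ones between 1482 and 1746. Either white depot was then below BAT without overlap, at differences of -0.48 (SE 0.17, limma adjusted p = 0.155) and -0.68 (SE 0.19, limma adjusted p = 0.0675), neither past the threshold of 0.05. Here and below, a lack of overlap is a description only, and the share of all genes that had it was not counted. In an exact permutation test, full separation gives at best p = 0.1 for 3 against 3 libraries and p = 0.2 for 2 against 3. Without perigonadal replicate 2, which leaves only replicate 1 in that group, the scaled perigonadal difference was -0.86. Between the white depots the difference turned from -0.47 to 0.20 with scaling. Quantile normalization, which sets a value from its rank and so tells little of a gene at rank 3 to 6, gave 0.03 for inguinal WAT and -0.16 for perigonadal WAT against BAT. Of the summed FPKM of all genes, Ucp1 took 0.891 ± 0.0988 percent (SD, n = 3) in inguinal WAT, 0.819 ± 0.0672 percent (SD, n = 2) in perigonadal WAT and 1.12 ± 0.0756 percent (SD, n = 3) in BAT.

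**Figure D2:**
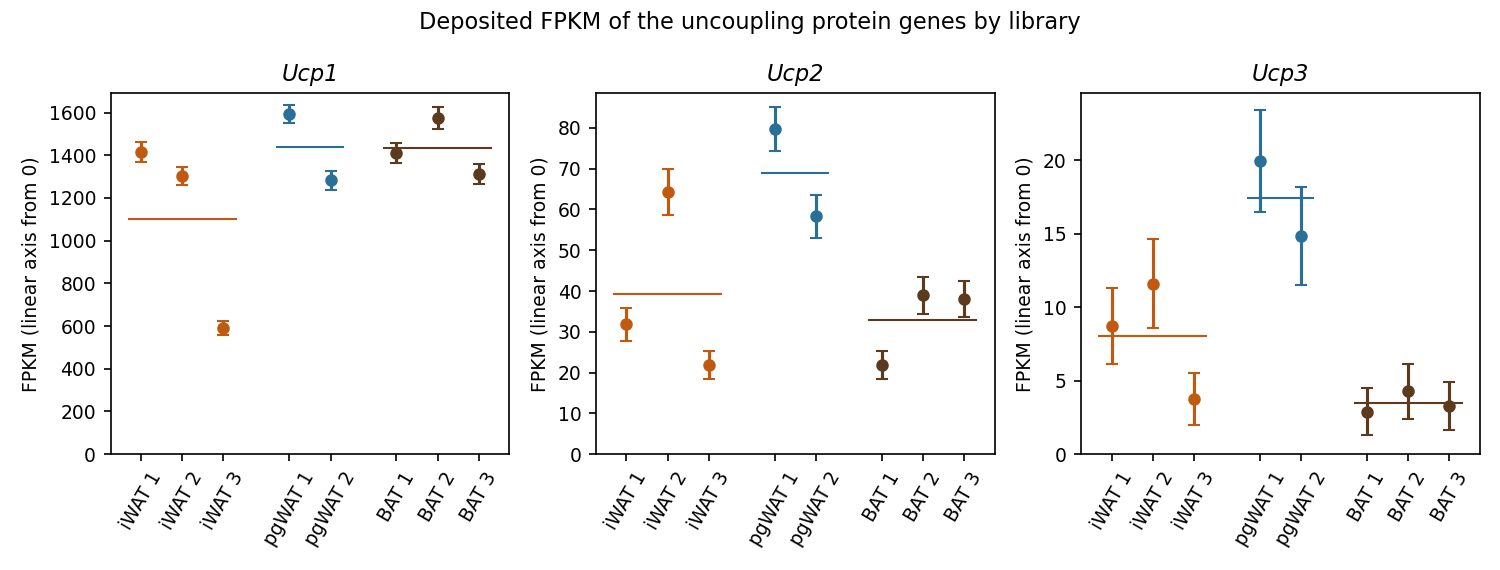
Deposited FPKM of Ucp1, Ucp2 and Ucp3 in each library (points), with the deposited confidence bounds (bars) and the mean of each depot (lines), on linear axes from 0. Ucp3 has its highest values, 19.96 and 14.8, in perigonadal WAT, and inguinal WAT replicate 3 is the lowest inguinal library for all 3 genes.

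Ucp2 was present in every library at 21.8 to 79.7 FPKM, with no call between depots. BAT replicates 1, 2 and 3 had 21.9, 38.9 and 38.1 FPKM, the perigonadal pair 79.7 and 58.3, and the inguinal libraries 31.8, 64.3 and 21.8. Inguinal replicate 2 stood near the perigonadal libraries, and the other inguinal libraries lay within or just under the BAT range. The mean was 39.3 ± 22.2 FPKM (SD, n = 3) in inguinal WAT, 69.0 ± 15.1 (SD, n = 2) in perigonadal WAT and 32.9 ± 9.60 (SD, n = 3) in BAT. Between 158 and 878 fragments stood behind a value, and the confidence bounds of inguinal replicates 1 and 2, at 27.9 to 35.8 and 58.7 to 70.03 FPKM, did not meet.

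Perigonadal WAT and BAT did not overlap in Ucp2, with a difference of 1.07 (SE 0.45, 95% interval 0.18 to 1.97), which did not pass limma's adjustment (adjusted p = 0.156). Scaling, which removes the shift common to all genes, left 0.40 (SE 0.33, limma adjusted p = 0.565). A fit of only these libraries and BAT (limma adjusted p = 0.0194) or one without inguinal replicate 3 (0.0338) called Ucp2 higher on the deposited scale. Inguinal WAT differed from BAT by 0.15 (SE 0.40, -0.65 to 0.95, limma adjusted p = 0.995), and that sign turned without inguinal replicate 2 (-0.27) or BAT replicate 1 (-0.11). Inguinal and perigonadal WAT differed by -0.92 (SE 0.45, limma adjusted p = 0.393), or -0.26 after scaling.

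With all libraries and the deposited values in the model, Ucp3 was the only member called between depots. It was 4.99-fold higher by mean FPKM in perigonadal WAT than in BAT, or 3.08-fold after scaling, and passed the test both ways. BAT replicates 1, 2 and 3 had 2.88, 4.28 and 3.29 FPKM, the perigonadal pair 19.96 and 14.8, and the inguinal libraries 8.72, 11.6 and 3.74. From 13 to 21 fragments stood behind a BAT value and 79 to 133 behind a perigonadal one. The perigonadal libraries lay above every other library, and of the inguinal libraries only replicate 3 lay within the BAT range. The deposited confidence bounds were 16.5 to 23.4 and 11.5 to 18.2 FPKM in the perigonadal replicates, and in BAT they reached at most 6.15 FPKM.

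The difference of Ucp3 between perigonadal WAT and BAT was 2.03 (SE 0.46, 95% interval 1.12 to 2.95, limma adjusted p = 0.00223). It was thus 1 of 3 members called, where 5.18 percent of all tested genes were called in either direction (4.91 percent higher and 0.268 percent lower in perigonadal WAT), and it exceeded the median difference of all genes of 0.52. After scaling it was 1.42 (SE 0.24, limma adjusted p = 0.00823), where 6.11 percent of genes were called (2.61 percent higher and 3.49 percent lower). The call was lost without perigonadal replicate 1 on the deposited scale (1.83, limma adjusted p = 0.126) and narrowly after scaling without perigonadal replicate 1 (1.51, adjusted p = 0.0559) or 2 (1.30, adjusted p = 0.0530). It was also lost when no filter on low values was applied (limma adjusted p = 0.0919).

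Against BAT, Ucp3 in inguinal WAT had a difference of 0.91 (SE 0.41, 95% interval 0.09 to 1.73) that did not pass on the deposited scale (limma adjusted p = 0.457). None of the members was called there, against 2.2 percent of all tested genes (1.73 percent higher and 0.469 percent lower in inguinal WAT). After scaling, the inguinal libraries had 6.86 to 10.2 FPKM and the BAT libraries 3.11 to 4.74, without overlap, and the difference of 0.90 (SE 0.21) passed (limma adjusted p = 0.0400), where 4.62 percent of genes were called (2.99 percent higher and 1.63 percent lower). The scaled call did not hold without any 1 of the 8 libraries (limma adjusted p from 0.0519 to 0.136), while the difference stayed between 0.73 and 1.02. On the deposited scale, leaving out inguinal replicate 3 gave 1.31 with limma's adjusted p at 0.0171. Between the white depots Ucp3 differed by -1.13 (SE 0.46, -2.04 to -0.21, limma adjusted p = 0.336), and by -0.52 (SE 0.24, adjusted p = 0.661) after scaling. The groups did not overlap on either scale, and none of the members was called, against 0.703 percent of genes (0.301 percent higher and 0.402 percent lower in inguinal WAT), or 0.313 percent after scaling.

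**Figure D3:**
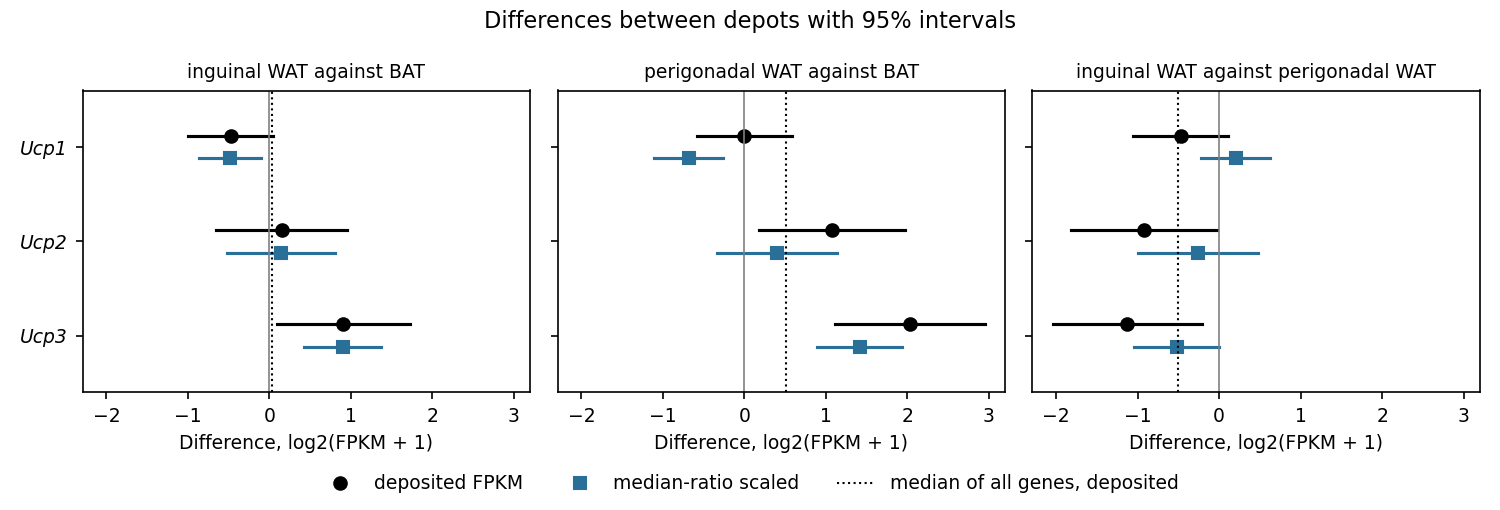
Differences in log2(FPKM + 1) for each comparison of depots (first named minus second), with 95% intervals from limma, for deposited values (circles) and median-ratio scaled values (squares). The dotted line is the median of all tested genes on the deposited scale, and Ucp3 in perigonadal WAT against BAT, at 2.03 and 1.42, has intervals above it on either scale.

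Plain ratios of FPKM between members within a library do not depend on how libraries are scaled. In those with Ucp3 the BAT libraries lay above all others. Ucp1 exceeded Ucp3 by 489-fold, 368-fold and 399-fold in BAT replicates 1, 2 and 3. The ratio was 163, 112 and 158 in the inguinal replicates and 79.8 and 86.5 in the perigonadal replicates. These ratios did not overlap between the 3 depots, with BAT highest and perigonadal WAT lowest, but some of their counting intervals did. Exact 95% binomial intervals, which cover counting error only, were 240.5 to 595 in BAT replicate 2 and 121 to 223 in inguinal replicate 1, the highest inguinal ratio. That of inguinal replicate 3, from 99.9 to 268 with 18 Ucp3 fragments, reached into the intervals of BAT replicates 2 and 3. The interval of inguinal replicate 2, from 86.7 to 148, met those of perigonadal replicates 1 (67.2 to 95.5) and 2 (69.2 to 110). Inguinal replicate 3 also met perigonadal replicate 2.

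The tests used a pseudocount of 1 FPKM, which lowers the ratios to Ucp3 and makes them depend somewhat on scaling. On this log2 scale the ratio of Ucp1 to Ucp3 was 1.38 lower in inguinal WAT than in BAT. The means were 6.95 ± 0.25 and 8.33 ± 0.15 (SD, n = 3 each). The exact permutation test gave p = 0.1, the smallest that 3 against 3 libraries allow, so no threshold of 0.05 could be reached. Perigonadal WAT, at 6.30 ± 0.07 (SD, n = 2), was 2.03 below BAT by the same exact test (p = 0.2, the smallest that 2 against 3 allow). The white depots differed by 0.65 (exact permutation p = 0.2). Adjusted over the 9 ratio tests, each of these p was 0.3. Leaving out any 1 library kept the difference between -1.50 and -1.25 for inguinal WAT and between -2.09 and -1.94 for perigonadal WAT against BAT.

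The other pairs moved less. Ucp2 exceeded Ucp3 by 7.59-fold to 11.6-fold in BAT, 3.65-fold to 5.84-fold in inguinal WAT and 3.93-fold to 3.99-fold in perigonadal WAT. Either white depot lay below BAT without overlap, by -0.75 (exact permutation p = 0.1) and -0.96 (p = 0.2) on the log2 scale. Ucp1 exceeded Ucp2 by 34.5-fold to 64.5-fold in BAT, 20.2-fold to 44.5-fold in inguinal WAT and 19.99-fold to 22.0-fold in perigonadal WAT. Inguinal WAT and BAT overlapped in that ratio (difference -0.62, exact permutation p = 0.3), and perigonadal WAT lay below BAT (-1.07, exact permutation p = 0.2). These ratios rest on the gene models above, and their size for Ucp2 would change with another transcript length.

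**Figure D4:**
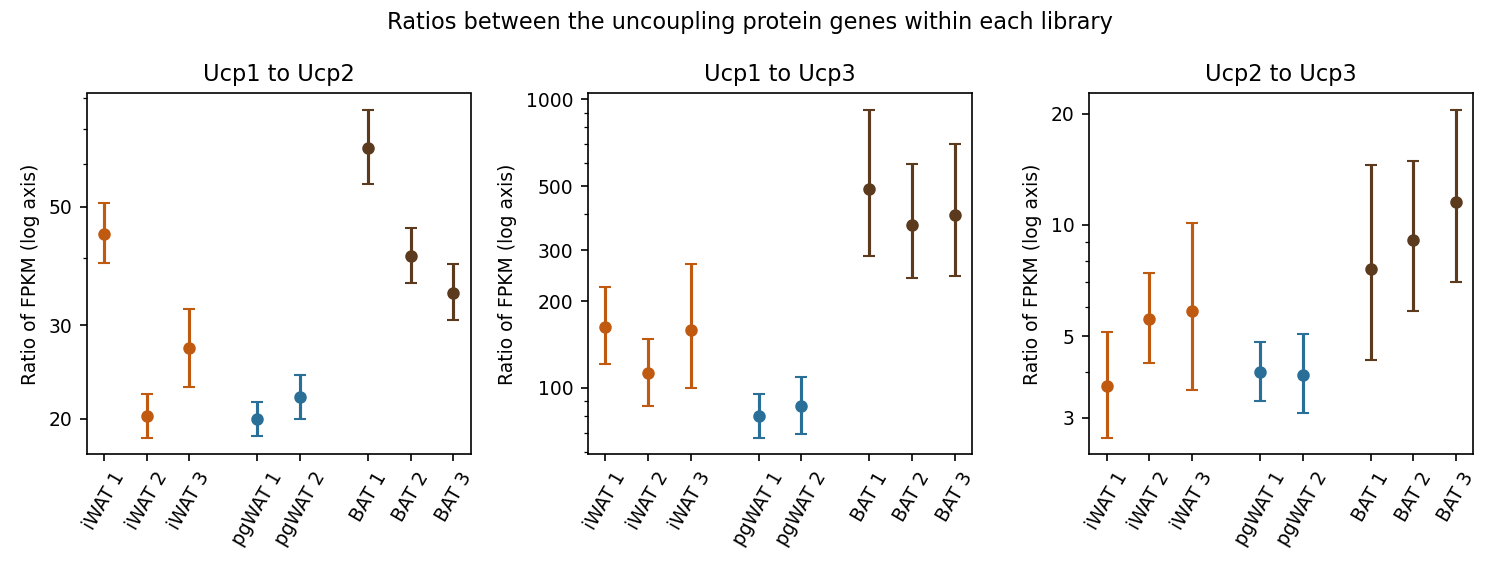
Ratio of FPKM between members within each library (log axes), with exact 95% binomial intervals from the recovered fragments. The ratio of Ucp1 to Ucp3 is 368 to 489 in BAT, 112 to 163 in inguinal WAT and 79.8 to 86.5 in perigonadal WAT. The points do not overlap between depots, while some intervals of inguinal WAT meet those of either other depot.

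The ranks of the members within their libraries gave the same order of depots for Ucp3. Ucp1 ranked 3, 4 and 6 in the inguinal replicates, 4 and 6 in the perigonadal replicates and 4 in each BAT library. In 6 of 8 libraries Fabp4, a fatty acid carrier of adipocytes, and Tmem38b, a cation channel of the endoplasmic reticulum, were among the 3 genes just above it. The desaturase Scd1 was so in 3 white libraries, and the cytochrome c oxidase subunit Cox8b in the 3 BAT libraries. Ucp2 ranked 380 to 760 in inguinal WAT, 409 and 414 in perigonadal WAT and 526 to 909 in BAT. Ucp3 ranked 1783 to 2455, 1419 to 1549 and 3275 to 4291, so that its ranks did not overlap between depots. Expressed against the genes above 0 in the same library, Ucp3 was within the top 11.4 to 12.2 percent in perigonadal WAT, 14.6 to 22.8 percent in inguinal WAT and 30.6 to 39.4 percent in BAT. Ranks depend on depth through the number of genes detected, which was 10705 to 13599.

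**Figure D5:**
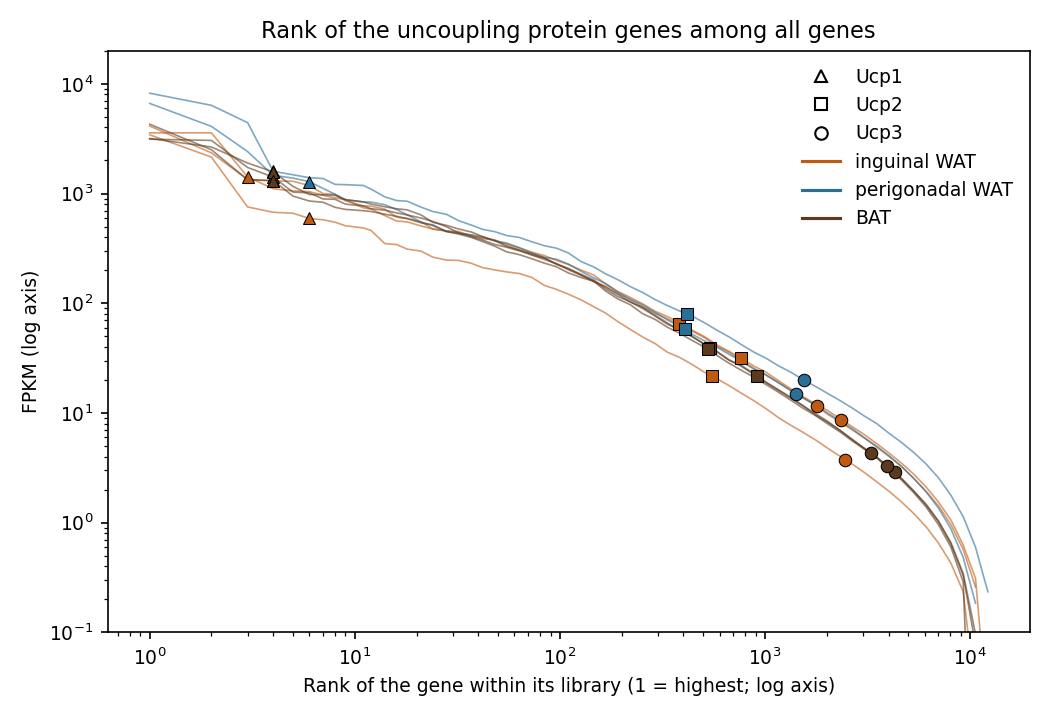
FPKM against rank for all genes of each library (lines, both axes logarithmic), with the positions of Ucp1 (triangles), Ucp2 (squares) and Ucp3 (circles), coloured by depot. Ucp1 lies at rank 3 to 6 in all libraries, and the Ucp3 symbols run from rank 1419 in perigonadal WAT to 4291 in BAT.

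The members did not all vary alike over the 8 libraries. After scaling, Pearson's r between Ucp1 and Ucp3 was -0.81 (Spearman's rho -0.74), between Ucp1 and Ucp2 -0.26 (rho -0.38) and between Ucp2 and Ucp3 0.58 (rho 0.71). On the deposited values they were 0.32, 0.50 and 0.86, where the total of a library is shared by all genes. These describe 8 libraries in 3 depots, and a difference between depots alone can give such values.

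Among 3096 genes with a mean of at least 5 FPKM, the patterns most like Ucp1 after scaling were those of Uqcr11, a subunit of respiratory complex III (r = 0.995), Atp5j2, of ATP synthase (0.991), Slc25a39, a mitochondrial carrier (0.983), Esrra, a nuclear receptor that drives mitochondrial genes (0.982), and Cox8a, of cytochrome c oxidase (0.982). For Ucp3 they were Lpin1, a phosphatidate phosphatase of triglyceride synthesis (0.993), Tgfbr2, a receptor of TGF-beta (0.993), Smoc1, a secreted calcium-binding protein (0.982), Tmem120b, a membrane protein of the nuclear envelope (0.977), and Ugp2, which makes UDP-glucose (0.970). Tgfbr2 had 3.44 ± 0.628 FPKM (SD, n = 3) in BAT, 8.31 ± 4.22 (SD, n = 3) in inguinal WAT and 17.7 ± 3.98 (SD, n = 2) in perigonadal WAT, close to the levels of Ucp3. For Ucp2 the likeness was weaker, from 0.928 (Pmepa1) over Wbp2 (0.898), Ncln (0.893) and Ube4b (0.891) to 0.890 (Ttc1). These values have no test.

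Of 20 listed SLC25 carriers 15 were tested, and 2 were called higher and 0 lower in inguinal WAT against BAT, with a median difference of 0.09 (0.03 over all genes) and 1.73 percent of all genes called higher. The same 2 were called higher in perigonadal WAT against BAT, with a median of 0.66 (0.52 over all genes) and 4.91 percent of all genes called higher, and limma called 0 between the white depots, where 3 had an unadjusted p under 0.05. They were Slc25a1, the citrate carrier that feeds fatty acid synthesis, and Slc25a10, the dicarboxylate carrier. Slc25a10 had 0.372 ± 0.104 FPKM (SD, n = 3) in BAT, 6.85 ± 3.77 (SD, n = 3) in inguinal WAT and 20.1 ± 8.37 (SD, n = 2) in perigonadal WAT (log2 differences from BAT 2.40 and 3.89, limma adjusted p = 2.13e-05 and 9.34e-10). It was under 1 FPKM in each BAT library and entered the test through the white depots. Without the filter on low values, neither Slc25a10 nor Slc25a1 was called in inguinal WAT (limma adjusted p = 0.0833 and 0.0773), and both were in perigonadal WAT. Slc25a1 had 34.5 ± 2.71, 197 ± 98.4 and 336 ± 6.23 FPKM in the same order (limma adjusted p = 2.15e-06 and 6.30e-09). The ADP/ATP carriers Slc25a4 and Slc25a5, through which some proton leak also passes, had 55.5 ± 5.24 and 97.5 ± 14.0 FPKM (SD, n = 3) in BAT, and were named for this function. Their differences from BAT were 0.09 and -0.16 in inguinal WAT and 0.48 and 0.47 in perigonadal WAT (limma adjusted p from 0.455 to 0.995). Slc25a27 and Slc25a14, also named UCP4 and UCP5 and given here for that reason, had at most 0.202 and 1.56 FPKM as the mean of a depot.

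Of 33 listed regulators of Ucp1, genes of adrenergic signalling and transcription, 30 were tested, with 0 called in inguinal WAT against BAT (2.2 percent of all genes, and 2 of the list at an unadjusted p under 0.05 by limma) and a median of -0.16. The members of highest mean, Gnas, the stimulatory G protein, and Prkar2b, a regulatory subunit of protein kinase A, had differences of -0.49 and -0.03 there (limma adjusted p = 0.827 and 0.997). In perigonadal WAT against BAT 2 were called higher and 0 lower, where 4.91 percent of all genes were called higher, with a median of 0.39 against 0.52 over all genes, and limma called 0 between the white depots (8 at an unadjusted p under 0.05). Adrb3, the beta-3 adrenergic receptor of adipocytes, had 11.2 ± 0.472 FPKM (SD, n = 3) in BAT and 50.8 ± 39.0 (SD, n = 2) in perigonadal WAT (difference 1.84, limma adjusted p = 0.00965). Without perigonadal replicate 1 the difference was 0.98 (limma adjusted p = 0.946), or 0.66 after scaling (0.365). Nrip1, a corepressor of nuclear receptors that holds Ucp1 down in white adipocytes, had 0.898 ± 0.0551 and 4.17 ± 1.64 FPKM (difference 1.41, limma adjusted p = 0.0321). Nrip1 was under 1 FPKM in each BAT library and entered the test through the white depots, and its call was lost without the filter on low values (0.140 by limma) and without perigonadal replicate 1 (0.710). With all libraries, scaling kept both calls (limma adjusted p = 0.0379 and 0.0342) and also called Dio2, the deiodinase that activates thyroid hormone, and Esrra lower in perigonadal WAT, and Dio2 and Ebf2, a transcription factor of brown fat, lower in inguinal WAT (limma adjusted p from 0.0126 to 0.0465); these 3 were named after their values were seen. The number called in perigonadal WAT depended on single libraries. It was 6 without inguinal replicate 3, where 1326 of all genes were called in either direction. Leaving out perigonadal replicate 1 leaves 1 library in its group, so no count is given for it.

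Ucp2 and Ucp3 are known to respond to fatty acids through PPAR receptors. Of 28 PPAR target genes, 28 were tested, with 0 called in inguinal WAT against BAT (2.2 percent of all genes) and a median of 0.03. An unadjusted p under 0.05 by limma was found there for 2 of the list, and for 764 of all 8958 genes. Scaling called Ehhadh higher and Fabp3 lower there (limma adjusted p = 0.0273 and 0.0205). The members of highest mean, Fabp4 and Hadhb, a subunit of mitochondrial beta-oxidation, had differences of 0.21 and 0.27. In perigonadal WAT against BAT 3 were called higher and 0 lower (4.91 and 0.268 percent of all genes), with a median of 0.69, or 0.03 after scaling. For the white depots limma called 0, with 9 at an unadjusted p under 0.05 (1114 of all 8958 genes). Those called higher in perigonadal WAT included Fabp4 and Ehhadh, an enzyme of peroxisomal oxidation. Ehhadh had 22.7 ± 4.98 FPKM (SD, n = 3) in BAT and 92.4 ± 45.8 (SD, n = 2) in perigonadal WAT (difference 1.91, limma adjusted p = 0.00410, 0.0135 after scaling). After scaling Ehhadh was still called higher, and Fabp3 was called lower (limma adjusted p = 0.0171). Pdk4, an inhibitor of pyruvate oxidation often measured beside Ucp3, had 179 ± 39.3 FPKM (SD, n = 3) in BAT, 206 ± 132 (SD, n = 3) in inguinal WAT and 451 ± 278 (SD, n = 2) in perigonadal WAT, and was not called (limma adjusted p = 0.998 and 0.0642). Pdk4 and Fabp3 were named after their values were seen. The count in perigonadal WAT also depended on single libraries. It was 12 without inguinal replicate 3, where 1326 of all genes were called in either direction. Leaving out perigonadal replicate 1 leaves 1 library in its group, so no count is given for it. Without that library the difference of Ehhadh fell to 1.38, or 1.05 after scaling. That of Fabp4 was then 0.58, or 0.24 after scaling.

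Genes that release and bind fatty acids, the activators of UCP1, were higher in perigonadal WAT for 6 of 11, and lower for 0 (4.91 and 0.268 percent of all genes), with a median of 1.13 (0.52 over all genes); they were Pnpla2, Plin1, Plin2, Cidec, Fabp4 and Fabp5. Quantile normalization called 7 of the 11, whereas median-ratio scaling left 2 calls (2.61 percent of all genes higher), Cidec, of the lipid droplet surface, and Fabp5, a fatty acid-binding protein, with a median of 0.45. Plin2, a coat protein of lipid droplets, and Pnpla2, the triglyceride lipase ATGL, had differences of 1.32 and 1.13 (limma adjusted p = 0.00888 and 0.0438), and neither passed after median-ratio scaling (0.220 and 0.204), while both passed after quantile normalization. In inguinal WAT 1 of 11 was called higher, Fabp5 (difference 2.99, limma adjusted p = 1.07e-07), where 1.73 percent of all genes were. Limma called 0 of the 11 between the white depots, with 6 at an unadjusted p under 0.05 (1114 of all 8958 genes). Without inguinal replicate 3 the count was 9 for perigonadal WAT, where 1326 of all genes were called in either direction. For inguinal WAT leaving out 1 library moved the count from 1 to 5 (inguinal replicate 3, with 336 of all genes called). Leaving out perigonadal replicate 1 leaves 1 library in its group, so no perigonadal count is given for it. Without that library the perigonadal differences of Plin2, Pnpla2 and Cidec were 1.15, 0.96 and 1.26, or 0.81, 0.62 and 0.92 after median-ratio scaling.

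Markers of the labelled cells were abundant in each library. The summed FPKM of 7 brown and beige markers, Ucp1 included, was 1414 to 3161 in inguinal WAT, 3129 to 3393 in perigonadal WAT and 3961 to 5014 in BAT, and 0 of them were at 0. Ucp1, by which the cells were marked, itself gave 592 to 1417, 1282 to 1593 and 1313 to 1575 FPKM of these sums. The 7 general adipocyte markers summed to 2659.8 to 4991 FPKM in inguinal WAT, 5106 to 8172 in perigonadal WAT and 2948 to 3564 in BAT, with 0 at 0. Of these, 4 were called higher in perigonadal WAT than in BAT, and 2 after scaling, where 4.91 and 2.61 percent of all genes were called higher. Their part in the values of Ucp3 and the fatty acid genes was not tested. Of the brown and beige markers, 2 were called lower and 0 higher in inguinal WAT than in BAT (0.469 percent of all genes lower). In perigonadal WAT 1 was called lower and 0 higher (0.268 percent lower). After scaling, 3 were called lower and 0 higher in either white depot, where 1.63 percent (inguinal) and 3.49 percent (perigonadal) of all genes were lower. The sum of 12 markers of skeletal muscle, a main site of Ucp3, was 0.0955 to 0.559 FPKM in inguinal WAT, 1.52 and 1.55 in perigonadal WAT and 2.13 to 9.29 in BAT, with 8 to 11, 8 to 9 and 5 to 8 of 12 at 0. Ckm, muscle creatine kinase, was at 0 in every white library, and the part of muscle RNA in the level of Ucp3 was not tested. Mb, myoglobin, which brown adipocytes also make, had 3.88 ± 3.63 FPKM (SD, n = 3) in BAT and was at 0 in every inguinal library. Macrophage markers, of a cell type known for Ucp2, summed to 6.65 to 7.09, 7.70 to 18.7 and 6.22 to 11.5 FPKM over 13 genes in inguinal WAT, perigonadal WAT and BAT. On the deposited scale the highest sum was that of perigonadal replicate 1, which also had the highest Ucp2 and the largest median-ratio factor (1.83). After scaling, Ucp2 was highest in inguinal replicate 2, at 56.6, against 43.5 in perigonadal replicate 1. The sums were not scaled, and the part of macrophages in the level of Ucp2 was not tested. Lymphocyte markers summed to at most 4.66 FPKM. Mammary epithelial and smooth muscle markers summed to 99.2 to 127 and 42.4 to 134 FPKM in inguinal WAT, against at most 22.0 and 14.1 elsewhere, and their part in the inguinal values was not tested. In these bulk libraries fewer cells of a type and less RNA per cell cannot be told apart.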

How the data were processed

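Ribosome-bound RNA of UCP1-positive cells was sequenced in 8 libraries. The submitters' processing notes name TopHat, Cufflinks and the build mm9, and no versions. The deposited values were FPKM per transcript with confidence bounds, made by the authors library by library. How Cufflinks was set, and whether it scaled libraries, is not given in the sources used here. The fragments behind a value were taken as the square of 2 × FPKM divided by the distance to its upper bound, and in each library 84.3 to 92.7 percent of low values then lay within 0.05 of a whole number. Intervals from them cover counting error only. Depots and replicate numbers came from the sample titles.

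FPKM was summed per gene. Genes with at least 1 FPKM in at least 2 libraries and a transcript of at least 300 bases were tested with limma (variance trend) on log2(FPKM + 1), all 8 libraries in 1 model, two-sided, with Benjamini-Hochberg adjustment over 8958 genes and a threshold of 0.05. Fold changes on this scale understate changes of low genes. Ratios of members were compared with exact two-sided permutation tests. Median-ratio factors were the median over genes above 0 in all libraries. Each library was left out in turn, and other settings were median-ratio and quantile scaling, a minimum of 5 FPKM or none, a pseudocount of 0.1 or 5, fewer groups in the fit, the most abundant transcript only, no variance trend and a replicate block. The code was tested on simulated data.

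The members and gene lists were chosen with earlier results of these data known. The members are always named; of each list the called genes with the highest mean FPKM are named, up to 4 per comparison (where fewer than 2 were called, the 2 of highest mean FPKM), further ones where the text says so, 1 listed gene is not reported here, and for likeness the 5 genes of highest Pearson's r after scaling, without predicted, clone and small RNA names. Start regions and annotation came from RefSeq GRCm38.p6 and coding sequences from GENCODE M21, both in another build than the files; 3 of 3 members matched by symbol, and coordinates of the builds were not mixed. Protein sequences were not used here. Software was limma 3.58.1 under R 4.3.3, and scipy 1.17.1, numpy 2.4.6, pandas 2.3.3, Biopython 1.88 and matplotlib 3.10.9 under Python 3.11.15.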

Additional observations from a re-analysis of the deposited data

How the results depend on the processing

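Directions and calls of the members were compared under each alternative; those that combine scaling with a left-out library or with a replicate block were chosen after seeing the data. The 97 alternatives in which a single listed gene lost its call are not given singly. Ucp3 in perigonadal WAT against BAT kept its direction throughout. Without a filter on low values its difference was 2.03 and not called, and leaving out 1 library gave 1.83 to 2.24, or 1.30 to 1.55 after scaling (1.51 and 1.30 without perigonadal replicates 1 and 2). Ucp3 in inguinal WAT against BAT was called at 0.90 after scaling or quantile normalization (0.90), and leaving out 1 library gave 0.61 to 1.31. Ucp2 in perigonadal WAT against BAT was called at 1.07 with only the compared groups, and leaving out 1 library gave 0.81 to 1.29. Ucp2 in inguinal WAT against BAT ran from -0.27 to 0.49, with -0.12 and -0.14 after scaling without inguinal replicate 2 or BAT replicate 1, and Ucp2 between the white depots turned to 0.025 after scaling without inguinal replicate 1.

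Ucp1 turned under at least 1 setting in each comparison. In perigonadal WAT against BAT, where its difference was 0.00, it was -0.68 after scaling, -0.16 after quantile normalization and -0.16 to 0.16 with 1 library left out. After scaling it was -0.68, -0.69 and -0.68 without inguinal replicates 1, 2 and 3, -0.50 and -0.86 without perigonadal replicates 1 and 2, and -0.71, -0.61 and -0.73 without BAT replicates 1, 2 and 3. In inguinal WAT against BAT only quantile normalization turned it, to 0.032. With 1 library left out it was -0.70 to -0.07 there, or -0.53 to -0.41 after scaling. Between the white depots scaling gave 0.20 and quantile normalization 0.19. After scaling it was 0.19, 0.20 and 0.24 without inguinal replicates 1, 2 and 3, 0.024 and 0.38 without perigonadal replicates 1 and 2, and 0.20, 0.20 and 0.20 without BAT replicates 1, 2 and 3. Of 84 alternatives of the ratios, 1 turned (Ucp2 to Ucp3 between the white depots with a pseudocount of 5, -0.017). The causes were not tested.

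Deviations of same-numbered libraries had correlations of -0.43 to 0.02, the lowest that of perigonadal and BAT replicates 1. Each inguinal and BAT library correlated best with the same number of the other, at -0.30 to -0.27 against -0.38 to -0.33 for unequal numbers. Whether equal numbers mark a pairing was not settled by these values, and the main model had no block. A replicate block called 280 genes in inguinal WAT against BAT, where the main model called 197. With the replicate block, Ucp1 in perigonadal WAT against BAT was -0.23, or -0.72 with scaling, and between the white depots 0.24 with scaling. Ucp3 in inguinal WAT against BAT was called at 0.90 with the block and scaling. Nrip1 in perigonadal WAT lost its call with the block (1.33), and Adrb3 with block and scaling (1.14).

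The numbers of genes called in inguinal WAT against BAT, 197, became 131 with a pseudocount of 0.1, 11 without a filter, 124 with a minimum of 5 FPKM, 414 with scaling, 407 with quantile normalization and 109 to 336 with 1 library left out. In perigonadal WAT against BAT, 464 became 214, 117 and 307 in that order, 1079 with only the compared groups and 105 to 1326 with 1 library left out. Between the white depots, 63 became 5 and 146 with pseudocounts of 0.1 and 5, 9 without a filter, 32 with the minimum, 28 with scaling, 39 with quantile normalization, 34 with only the compared groups and 11 to 220 with 1 library left out. Depth limits Ucp3 most, with 13 to 21 fragments in each BAT library.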
